A study of Mus musculus with 6 samples.

Results

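Mitophagy is the selective removal of mitochondria by autophagy, and it depends on receptors that tie the organelle to the growing autophagosome membrane. In the ubiquitin route, the kinase PINK1 gathers on damaged mitochondria and ubiquitin chains there are read by soluble adaptors such as optineurin. In the receptor route, proteins anchored in the mitochondrial membranes bind the autophagosome's LC3 and GABARAP proteins directly. To examine these transcripts in microglia, 10 genes were selected by name from the array annotation, out of 23462 genes that carry a symbol. They were the kinase gene Pink1, the membrane receptors Bnip3, Bnip3l, Fundc1, Fkbp8 and Phb2, and the ubiquitin adaptors Optn, Sqstm1, Nbr1 and Tax1bp1. These 10 genes were covered by 18 of 56605 probes.

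Microglia came from male mice aged 10 weeks of a C57BL/6 background and were selected magnetically by their surface receptor P2RY12. The littermate controls, PGC-1αf/f, hold a loxP-controlled allele for PGC-1α together with eGFP, which needs Cre recombinase to be expressed. mPGC-1α mice add a Cre-ERT2 placed in the Cx3cr1 locus, which tamoxifen activates in microglia and in any other cell that expresses Cx3cr1. Each group had 3 arrays, and no label says whether an array held 1 animal or pooled animals, so p-values describe the spread between these arrays. In the study's general scheme tamoxifen in corn oil was given several weeks ahead of experiments, and whether the PGC-1αf/f mice of these arrays also received it was not stated in the sources used here.

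Before the receptors were compared, the arrays were checked. Between 27025 and 30272 of 59305 spots were well above background on each array, 0 spots were saturated, and all levels below are log2 signals from which the array's own 75th percentile was subtracted. All 12 microglial markers were well above background on all 6 arrays. PGC-1αf/f replicate 3 stood apart, with a mean Pearson correlation across probes of 0.928 with the other arrays, against 0.967 for the lowest pair among the rest. On mPGC-1α replicate 3, 0 of 7 probes for Y-linked genes were well above background, against 5 or 6 on the other arrays, although each mouse is labelled male. Ppargc1a, the gene for PGC-1α, was at 0.19, -0.44 and -1.21 on the PGC-1αf/f arrays, against 0.57, 0.28 and 0.08 on those of mPGC-1α mice. These groups overlapped, with a difference of 0.80 (SE 0.35, limma adjusted p 0.306), which was 0.436 without PGC-1αf/f replicate 3, 1.14 without PGC-1αf/f replicate 1 and 0.553 without both arrays that stood apart. Whether the probe lies within the transgene was not analysed here. Cx3cr1, whose locus holds the Cre, differed by -0.51 (SE 0.14, limma adjusted p 0.194). Slide row and group cannot be told apart, because the PGC-1αf/f arrays lay in row 1 and the mPGC-1α arrays in row 2 of the slide.

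No receptor gene passed the threshold in mPGC-1α microglia. Of the 10 genes, 0 reached an adjusted p under 0.05 by limma, and the lowest adjusted p was 0.240, whereas 0.065% of the 12302 tested genes did. Limma's unadjusted p was under 0.05 for 1 of them, Nbr1, which was lower; over all tested genes this share was 13.9%, with 5.71% lower and 8.16% higher. Among the 17 tested probes of these genes, 0 passed after adjustment by limma and 2 had an unadjusted p under 0.05, while 0.0792% of all tested probes passed and 16.7% had such an unadjusted p. These 2 probes, of Nbr1 and Optn, were each well above background on all arrays of the brighter group only, through which they entered the fit, so their counts are no support for a difference. The groups were separate for 25.2% of the probes measured on every array. The groups did not overlap for 3 of the 10 genes, Optn (higher), Nbr1 and Fundc1 (both lower), and 22.9% of tested genes had groups that did not overlap. By the probe standing for each gene, the 95% interval of the difference stayed within a 2-fold change in either direction for 9 genes, Nbr1 among them. Of the other probes, the dimmer Pink1 probe (0.569-fold to 2.28-fold) and the second Optn probe (upper bound 2.10-fold) went past it. Optn had an upper bound of 2.002-fold, and the lower bound for Nbr1 (0.502-fold) is not firm because 1 of its mPGC-1α arrays was not well above background. The median log2 difference was 0.10 for the 10 genes and 0.03 for all tested genes, and the median size of the difference was 0.15 and 0.19, respectively. The median residual SD between arrays was 0.21 for both.

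**Figure D1:**
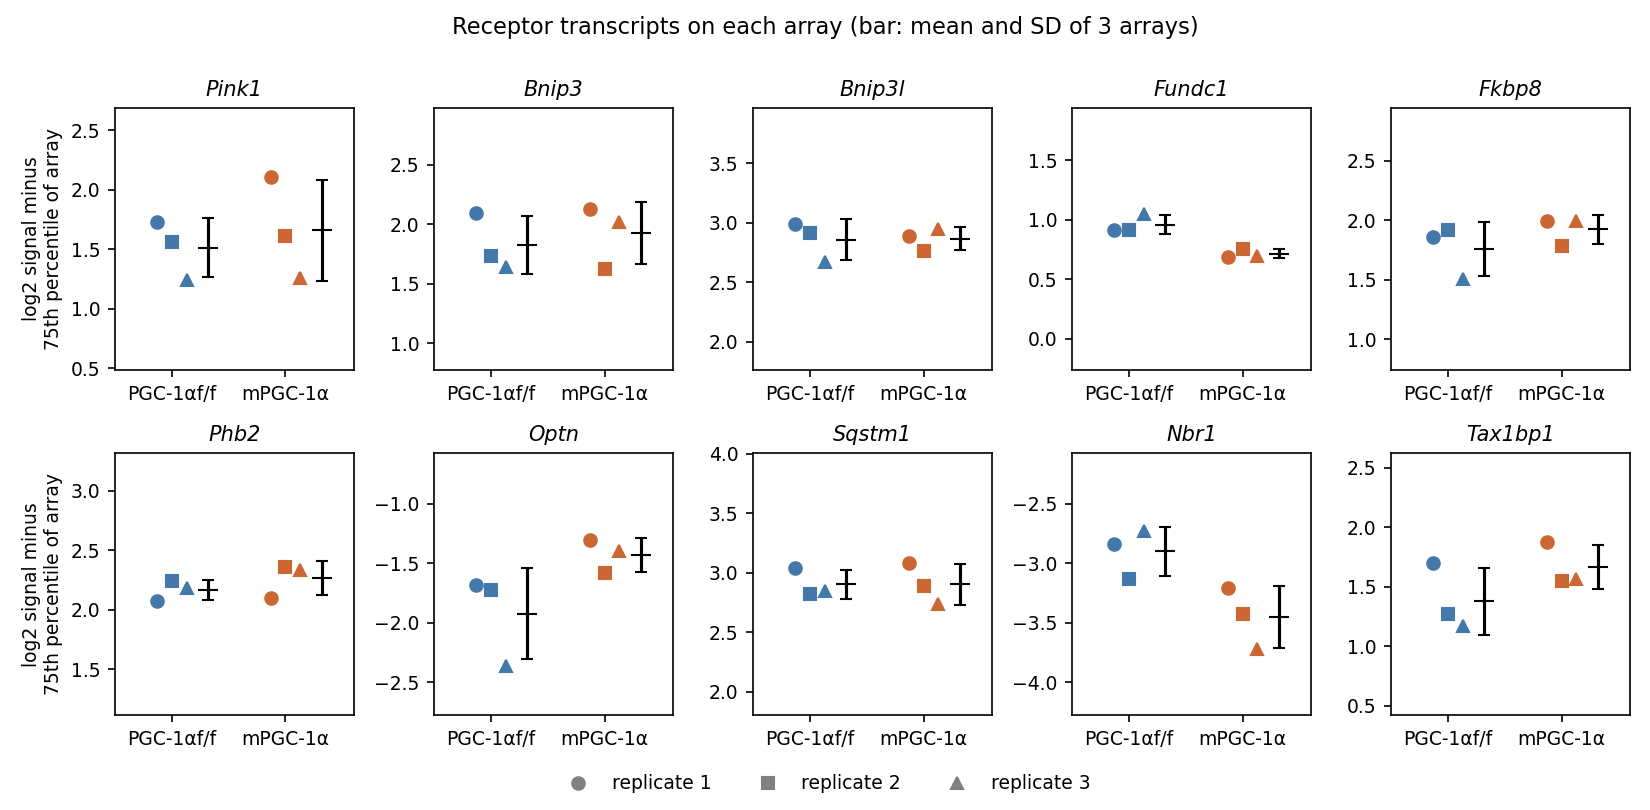
Log2 signal relative to the 75th percentile of each array (y axis) for the probe standing for each of the 10 receptor genes, with 1 point per array, a marker shape per replicate number and a bar for the mean and SD of 3 arrays. Every panel spans the same height; the points of the groups separate for Optn, Nbr1 and Fundc1 and overlap for the other 7 genes.

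Among the ubiquitin adaptor genes, Optn and Nbr1 had the largest differences of the 10 genes, in opposite directions, and Sqstm1 had the smallest. Optn encodes optineurin, which binds ubiquitin chains on mitochondria and is phosphorylated by the kinase TBK1. Its brighter probe gave -1.68, -1.72 and -2.37 on the PGC-1αf/f arrays, against -1.30, -1.58 and -1.39 on those of mPGC-1α mice. All mPGC-1α values lay above all PGC-1αf/f values, and PGC-1αf/f replicate 3 was the lowest of the 6. The difference was 0.50 (SE 0.21, 95% interval -0.01 to 1.001, limma adjusted p 0.303), or 1.41-fold. A second Optn probe, well above background on 2 of 3 PGC-1αf/f arrays, gave -3.38, -3.22 and -3.93 against -2.96, -2.83 and -2.95. It entered the fit through the mPGC-1α arrays, where it was brighter, and differed by 0.59 (SE 0.20, limma adjusted p 0.242), with its lowest value on PGC-1αf/f replicate 3. Leaving out PGC-1αf/f replicate 3 brought the brighter probe to 0.28 (limma adjusted p 0.523), and leaving out both arrays that stood apart to 0.26. With array weights it was 0.29. Markers of other cell types were set beside these genes. In each of the 8 marker lists 0 tested genes had an adjusted p under 0.05 by limma. An unadjusted p under 0.05 by limma was found for 4 of 8 oligodendrocyte markers, 1 of 7 microglial markers and 0 of the other lists. Over all tested genes this share was 13.9%. The summed signal of 13 blood leukocyte markers, in multiples of the 75th percentile, was 103, 113 and 23.3 in the controls, against 115, 123 and 144 on those of mPGC-1α mice. These sums did not overlap, PGC-1αf/f replicate 3 was far below the rest, and 10 of 11 tested markers were higher with a median log2 difference of 1.07. Oligodendrocyte sums did not overlap either, at 16.1 to 19.5 and 11.54 to 13.8, with 7 of 8 markers lower and a median of -0.58. The sums overlapped for endothelial and mural cells (1.61 to 4.14 and 2.85 to 5.52), with 5 of 5 tested markers higher and a median of 0.51, and for erythroid cells (4.86 to 20.03 and 10.8 to 19.2). Sums for microglia ran from 121 to 149 and from 115 to 132, for border macrophages from 6.71 to 8.57 and from 7.64 to 12.6 with 5 of 5 tested markers higher and a median of 0.38, for neurons from 12.3 to 16.01 and from 14.4 to 16.2, and for astrocytes from 7.56 to 10.4 and from 9.18 to 13.8. These sums covered 7 of 12 listed microglial, 5 of 6 border macrophage and 3 of 5 erythroid markers, and all listed markers of the other types. Cd79a of B cells, Slc17a7 of neurons and Rgs5 of pericytes were not well above background on any of the 6 arrays. The part of other cells in the results for Optn, Nbr1 and Fundc1 was not tested. In such bulk samples, fewer cells of a type and less RNA per cell cannot be told apart.

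Nbr1 encodes a relative of p62 that gathers ubiquitin-marked cargo, peroxisomes included, for autophagy. Its main probe was dim, at -2.84, -3.13 and -2.73 on the PGC-1αf/f arrays, against -3.21, -3.43 and -3.73 on those of mPGC-1α mice. Every mPGC-1α array lay below every PGC-1αf/f array, and mPGC-1α replicate 3, the lowest, was not well above background. The probe entered the fit through the PGC-1αf/f arrays, where it was brighter, and it was not tested under the filter requiring all 6 arrays. Nbr1 differed by -0.55 (SE 0.19, 95% interval -0.99 to -0.11), a ratio of 0.682, and its limma adjusted p was 0.240. Without mPGC-1α replicate 3 the difference was -0.42, and without both arrays that stood apart it was -0.33 (limma adjusted p 0.401 and 0.495).

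Sqstm1 and Tax1bp1, the remaining adaptor genes, had overlapping groups. Sqstm1 encodes p62, which binds ubiquitin and LC3 and is itself consumed by autophagy. Its brighter probe gave 3.04, 2.82 and 2.85 on the PGC-1αf/f arrays, against 3.08, 2.89 and 2.74 on those of mPGC-1α mice. Means of 2.90 ± 0.12 and 2.90 ± 0.17 (SD, n = 3 each) resulted. The 95% interval of the Sqstm1 difference ran from -0.35 to 0.35, so that a fold change below 0.785 or above 1.27 lay outside it. Tax1bp1 encodes a ubiquitin-binding adaptor that also restrains NF-κB signalling. It was at 1.70, 1.27 and 1.17 on the PGC-1αf/f arrays, against 1.88, 1.55 and 1.56 on those of mPGC-1α mice. PGC-1αf/f replicate 1 reached into the range of the mPGC-1α arrays, and the difference was 0.29 (SE 0.19, limma adjusted p 0.455). It was 0.445 without PGC-1αf/f replicate 1, 0.180 without PGC-1αf/f replicate 3 and 0.178 without mPGC-1α replicate 1, and was lower still at 0.153 by a median shift and 0.128 for the mean over its probes. The other probes of Tax1bp1 differed by 0.13 and -0.03, so its probes did not share a sign.

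**Figure D2:**
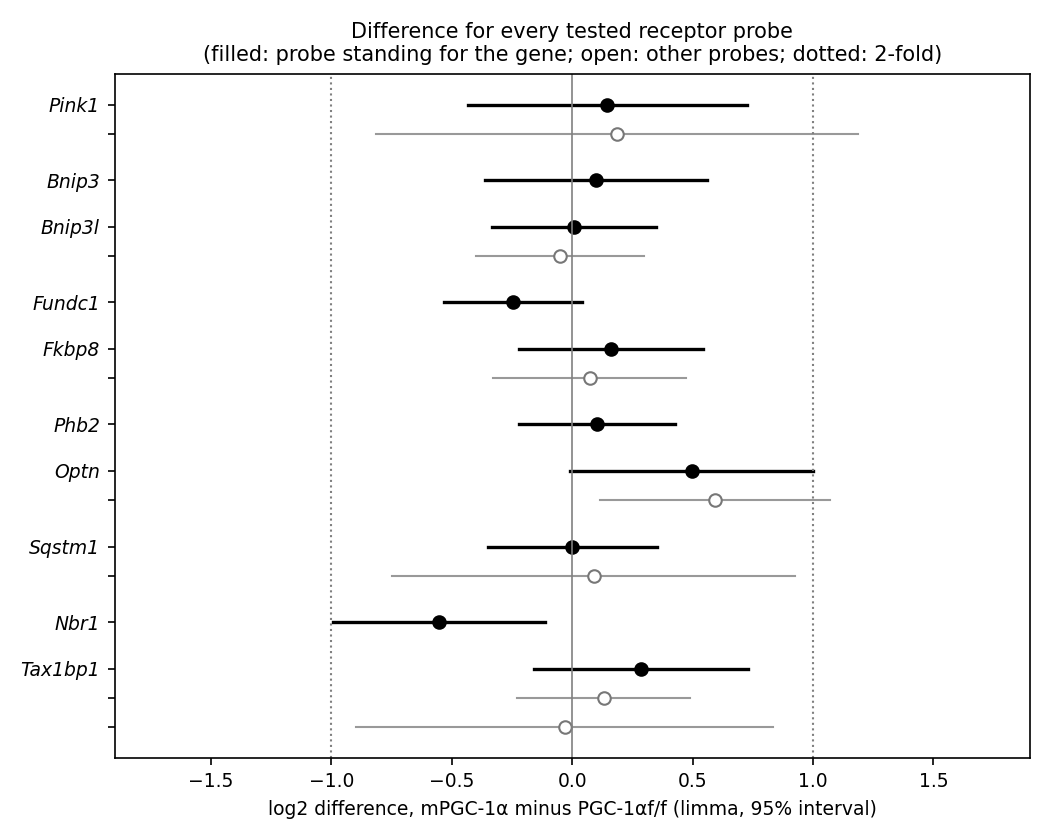
Log2 difference of mPGC-1α minus PGC-1αf/f microglia (x axis) with its 95% limma interval for the 17 tested receptor probes, filled where the probe stands for the gene and open for its other probes; dotted lines mark a 2-fold change. The filled points lie between -0.55 (Nbr1) and 0.50 (Optn), and the upper end for Optn reaches the 2-fold line.

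Promoters of the genes with the largest difference in each direction are shown together with that of Bnip3, a textbook target of the hypoxia-inducible factor HIF. The sequences are RefSeq promoters of the build GRCm38.p6, each with 250 bases before and 50 bases after the annotated start, written along the gene's own strand. Capitals mark ACGTG on either strand, the only form of the core of the HIF site that was searched, and overlapping matches were merged. The windows are chr2:5064068-5064367 (minus strand) for Optn, chr11:101551857-101552156 (plus strand) for Nbr1, and chr7:138909457-138909756 (minus strand) for Bnip3.
Optn: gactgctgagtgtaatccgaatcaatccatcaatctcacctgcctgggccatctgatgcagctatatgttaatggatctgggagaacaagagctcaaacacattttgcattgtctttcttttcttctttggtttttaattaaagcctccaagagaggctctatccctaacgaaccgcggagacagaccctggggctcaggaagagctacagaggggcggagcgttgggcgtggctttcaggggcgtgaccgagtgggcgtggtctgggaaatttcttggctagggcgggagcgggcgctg
Nbr1: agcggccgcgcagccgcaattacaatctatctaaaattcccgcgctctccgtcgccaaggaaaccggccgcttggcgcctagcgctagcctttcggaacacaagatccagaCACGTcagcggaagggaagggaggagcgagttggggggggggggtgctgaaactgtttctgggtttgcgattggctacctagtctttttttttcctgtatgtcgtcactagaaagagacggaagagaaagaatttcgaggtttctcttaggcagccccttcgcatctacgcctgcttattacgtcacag
Bnip3: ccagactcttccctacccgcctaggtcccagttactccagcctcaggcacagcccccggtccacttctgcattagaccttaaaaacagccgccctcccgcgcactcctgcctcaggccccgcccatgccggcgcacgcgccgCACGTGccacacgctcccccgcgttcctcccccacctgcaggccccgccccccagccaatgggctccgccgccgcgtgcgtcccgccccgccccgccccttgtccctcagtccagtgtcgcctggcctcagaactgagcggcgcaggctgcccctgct
The match in Bnip3 is a palindrome and was read on both strands, whereas the window of Optn held no ACGTG. The form GCGTG was not searched, and it does occur in the Optn window as printed. Nbr1 had another listed promoter, which held no match. Over all receptor genes, 9 of 10 had an entry, with 11 promoters in all, and Bnip3l had none. ACGTG was found in 5 of these 11 promoters, and in 19.6% of 32851 promoters of the same length. AAGGTCA, the extended half-site bound by estrogen-related receptors such as ERRα, a partner of PGC-1α, was found in 0 of the 11 and in 4.72% of all promoters. TGACNNNGC, the core of the antioxidant response element, was found in 1 (Tax1bp1) and in 12.4% of all. These are matches of letters in short windows and not measured binding.

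Pink1, the kinase gene upstream of the ubiquitin route, varied more within the groups than between them. Its brighter probe gave 1.73, 1.56 and 1.24 on the PGC-1αf/f arrays, against 2.11, 1.61 and 1.26 on those of mPGC-1α mice. The replicate 3 arrays were the lowest of either group, and the groups overlapped. Pink1 differed by 0.15 (SE 0.24, 95% interval -0.43 to 0.73, limma adjusted p 0.781). Its direction rested on single arrays, with -0.078 without mPGC-1α replicate 1, 0.010 without PGC-1αf/f replicate 3, 0.256 without PGC-1αf/f replicate 1 and 0.345 without mPGC-1α replicate 3. A second, dimmer probe gave -1.52, -1.60 and -2.67 against -1.12, -1.66 and -2.45, and again both replicate 3 arrays were the lowest. That probe differed by 0.19 (SE 0.42). The dimmer probe of Sqstm1 was also lowest on the replicate 3 array of each group, with -0.91, -1.34 and -2.06 on the PGC-1αf/f arrays, against -0.89, -1.28 and -1.87 on those of mPGC-1α mice. Its SD within groups was 0.58 and 0.50, against 0.12 and 0.17 for the brighter Sqstm1 probe, so the spread depended on the probe.

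**Figure D3:**
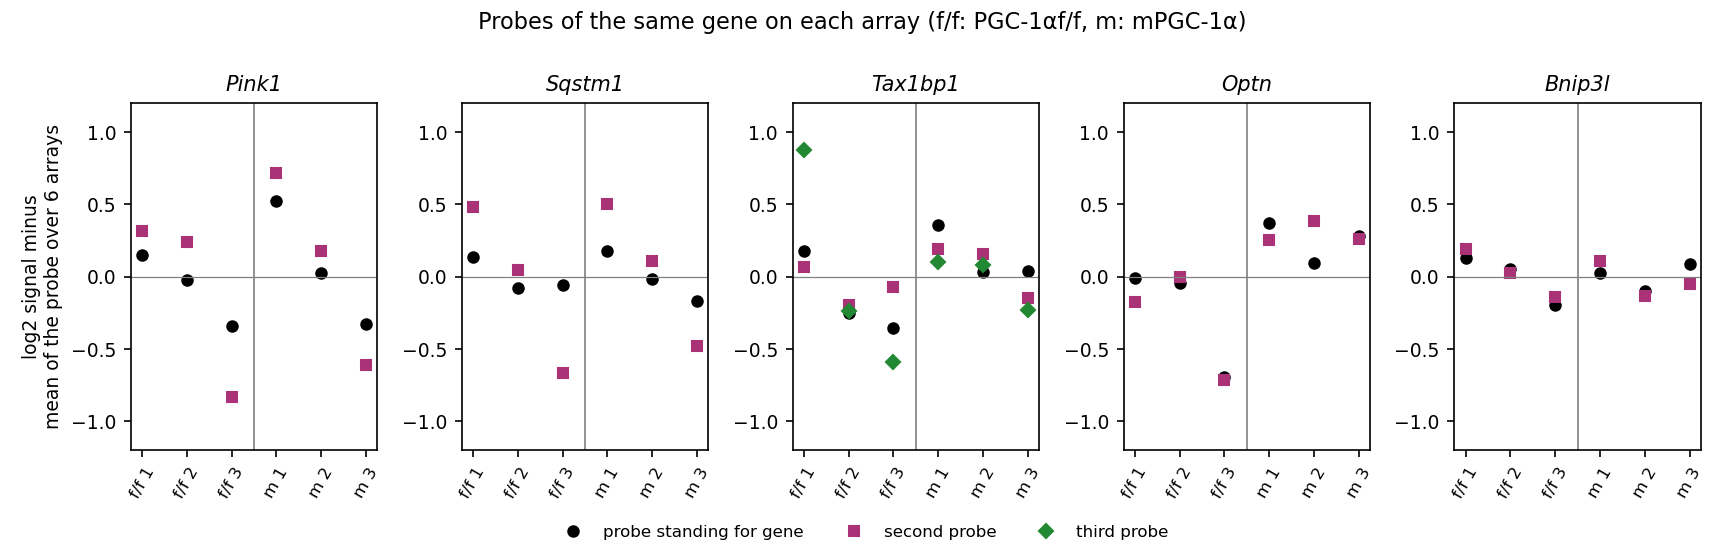
Log2 signal minus each probe's mean over 6 arrays (y axis) for the tested probes of 5 receptor genes, with the 3 PGC-1αf/f arrays left and the 3 mPGC-1α arrays right of the vertical line. Both Optn probes are lowest on PGC-1αf/f replicate 3, both Pink1 probes are lowest within each group on the replicate 3 arrays, and the second Sqstm1 probe is spread more widely than the first.

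Among the outer membrane receptor genes, Fundc1 alone had groups that did not overlap. FUNDC1 recruits LC3 during hypoxia. Fundc1 was at 0.92, 0.91 and 1.05 on the PGC-1αf/f arrays, against 0.69, 0.76 and 0.70 on those of mPGC-1α mice. The groups were separate and the arrays of each lay close together, with means of 0.96 ± 0.08 and 0.71 ± 0.04 (SD, n = 3 each). The difference of -0.25 (SE 0.12, 95% interval -0.53 to 0.04) corresponded to 0.844-fold and had a limma adjusted p of 0.350. It ran from -0.27 to -0.20 when each array was left out in turn, and it was -0.19 without both arrays that stood apart, -0.34 with normexp and -0.38 under a median shift. On the slide columns that held an array of each group, mPGC-1α minus PGC-1αf/f was -0.23 in column 1 and -0.16 in column 2 for Fundc1. In the same columns it was 0.38 and 0.14 for Optn and -0.36 and -0.30 for Nbr1, and since these genes had separate groups, the sign within a column was already given. Of the other genes, Bnip3 (0.03 and -0.11) and Fkbp8 (0.13 and -0.14) differed in sign between the columns.

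Bnip3 and Bnip3l encode BNIP3 and NIX, related receptors. BNIP3 is induced by low oxygen, and NIX clears mitochondria from maturing red blood cells. Bnip3 was at 2.10, 1.74 and 1.64 on the PGC-1αf/f arrays, against 2.13, 1.63 and 2.02 on those of mPGC-1α mice. The ranges were nearly the same, with a difference of 0.10 (SE 0.19, limma adjusted p 0.815) that ran from -0.0011 without mPGC-1α replicate 1 to 0.25 without mPGC-1α replicate 2. Bnip3l was at 2.995, 2.92 and 2.67 against 2.89, 2.77 and 2.95, with a difference of 0.01 (SE 0.14, limma adjusted p 0.981). A second Bnip3l probe differed by -0.05 (SE 0.15), and the interval of the first ran from 0.795-fold to 1.27-fold. No direction can be read for Bnip3l. Fkbp8 encodes an immunophilin of the outer membrane that binds LC3A. It gave 1.86, 1.92 and 1.50 on the PGC-1αf/f arrays, against 1.99, 1.78 and 1.99 on those of mPGC-1α mice. PGC-1αf/f replicate 3 was its lowest array, and the difference was 0.16 (SE 0.16, limma adjusted p 0.624). Without PGC-1αf/f replicate 3 it was 0.034, and without both arrays that stood apart -0.0025. A dimmer Fkbp8 probe differed by 0.07 (SE 0.17).

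Phb2, the only inner membrane receptor of the list, encodes prohibitin 2, which binds LC3 once the outer membrane has ruptured. It was at 2.07, 2.24 and 2.18 on the PGC-1αf/f arrays, against 2.10, 2.36 and 2.34 on those of mPGC-1α mice. PGC-1αf/f replicate 1 and mPGC-1α replicate 1 were the lowest arrays, and the groups overlapped. The difference was 0.10 (SE 0.14, 95% interval -0.22 to 0.43, limma adjusted p 0.723). Leaving out mPGC-1α replicate 1 gave 0.185 for Phb2, while leaving out mPGC-1α replicate 2, PGC-1αf/f replicate 1 or mPGC-1α replicate 3 gave 0.054, 0.056 and 0.067.

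Across the 6 arrays, PGC-1αf/f replicate 3 was the lowest array for 5 of the 10 genes and mPGC-1α replicate 1 the highest for 5. The median deviation of the 10 genes from their own means was -0.21 on PGC-1αf/f replicate 3, where that of all tested genes was -0.02, and 0.17 on mPGC-1α replicate 1, where it was 0.02. For 4 genes, Optn, Nbr1, Fundc1 and Tax1bp1, the sign of the difference held in every alternative that gave a value. The other 6 changed sign in at least 1 of the alternatives, and 0 of the 179 values under alternatives passed the threshold. Leaving out arrays could not turn the sign for Optn, Nbr1 and Fundc1, because their groups were separate. The filters, the replicate block and the trended robust fit left the difference of every fitted receptor gene unchanged, so they are no check of its sign.

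**Figure D4:**
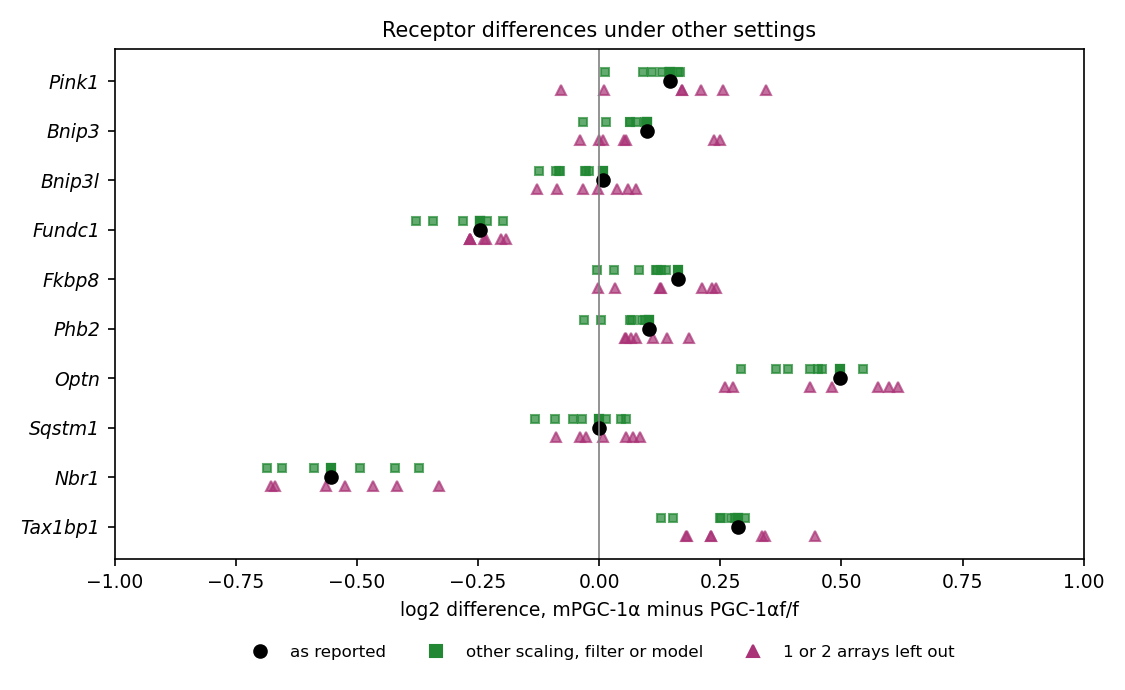
Log2 difference of mPGC-1α minus PGC-1αf/f microglia (x axis) for the 10 receptor genes as reported (circles), under other scalings, filters or models (squares) and with 1 or 2 arrays left out (triangles). Optn and Tax1bp1 stay above 0, Nbr1 and Fundc1 stay below 0, and the other 6 genes have points on both sides. Leaving out arrays could not move Optn, Nbr1 or Fundc1 across 0, because their groups do not overlap.

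Next, a wider list of 52 mitophagy genes was examined, and 50 of them could be compared over the 6 arrays. Usp8 and Tomm70a lacked values on some arrays after removal of outlier spots. After adjustment, 0 of the 50 passed in limma, with 0.192 as the lowest adjusted p. Limma's unadjusted p was under 0.05 for 1 gene that was higher and 3 that were lower, beside the 8.16% and 5.71% of all tested genes given above, and the groups did not overlap for 5 higher and 6 lower genes. Of all tested genes, 12.2% were separate and higher and 10.8% separate and lower. The median difference of the list was 0.03, and for 47 of the 50 the 95% interval stayed within 2-fold. That count includes Foxo3, which was well above background on 2 of 3 PGC-1αf/f arrays, so its interval is not firm. A set of 7 genes for outer membrane proteins ran from -0.21 to 0.06 by the probe standing for each gene. Among them were the mitofusin genes Mfn1 and Mfn2 and the channel genes Vdac1 to Vdac3. Other tested probes of the set were at -0.31 for Rhot1, -0.33 and -0.23 for Rhot2 and 0.14 for Mfn2. A second Mfn1 probe, well above background on 1 of 3 mPGC-1α arrays, was at -0.64.

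Map1lc3b, which encodes the LC3B protein that the receptors bind, was the single gene higher at an unadjusted p under 0.05. It gave 1.87, 1.85 and 1.77 on the PGC-1αf/f arrays, against 2.29, 2.20 and 2.29 on those of mPGC-1α mice. The groups were separate and tight, with a difference of 0.43 (SE 0.12, limma adjusted p 0.192), and a second probe differed by 0.55 (SE 0.16, limma adjusted p 0.201). It ran from 0.403 to 0.463 when 1 array was left out in turn. The other 4 LC3 and GABARAP genes ran from -0.10 to 0.27, and 0 of them had an unadjusted p under 0.05 by limma.

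The 3 lower genes were Stbd1, Usp35 and Oma1. Stbd1 encodes a glycogen-binding autophagy receptor and was at -1.59, -1.23 and -0.32 on the PGC-1αf/f arrays, against -2.47, -1.89 and -1.81 on those of mPGC-1α mice. Its probes differed by -1.01 (SE 0.35) and -1.23 (SE 0.34), with limma adjusted p of 0.242 and 0.191. The second of them entered the fit through the PGC-1αf/f arrays, where it was brighter, being well above background on 2 of 3 mPGC-1α arrays. Without PGC-1αf/f replicate 3, its highest array, the first Stbd1 probe was at -0.65. Usp35, for a deubiquitinase that counters mitophagy, differed by -0.67 (SE 0.21, limma adjusted p 0.229), or by -0.34 without both arrays that stood apart. Oma1, for an inner membrane protease, differed by -0.42 (SE 0.16, limma adjusted p 0.274). Tbk1, the kinase of optineurin, was separate and differed by -0.30 (SE 0.13, limma adjusted p 0.302). Usp30, the mitochondrial deubiquitinase, differed by -0.01 (SE 0.13), and the receptor gene Bcl2l13 by 0.06 (SE 0.13).

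**Figure D5:**
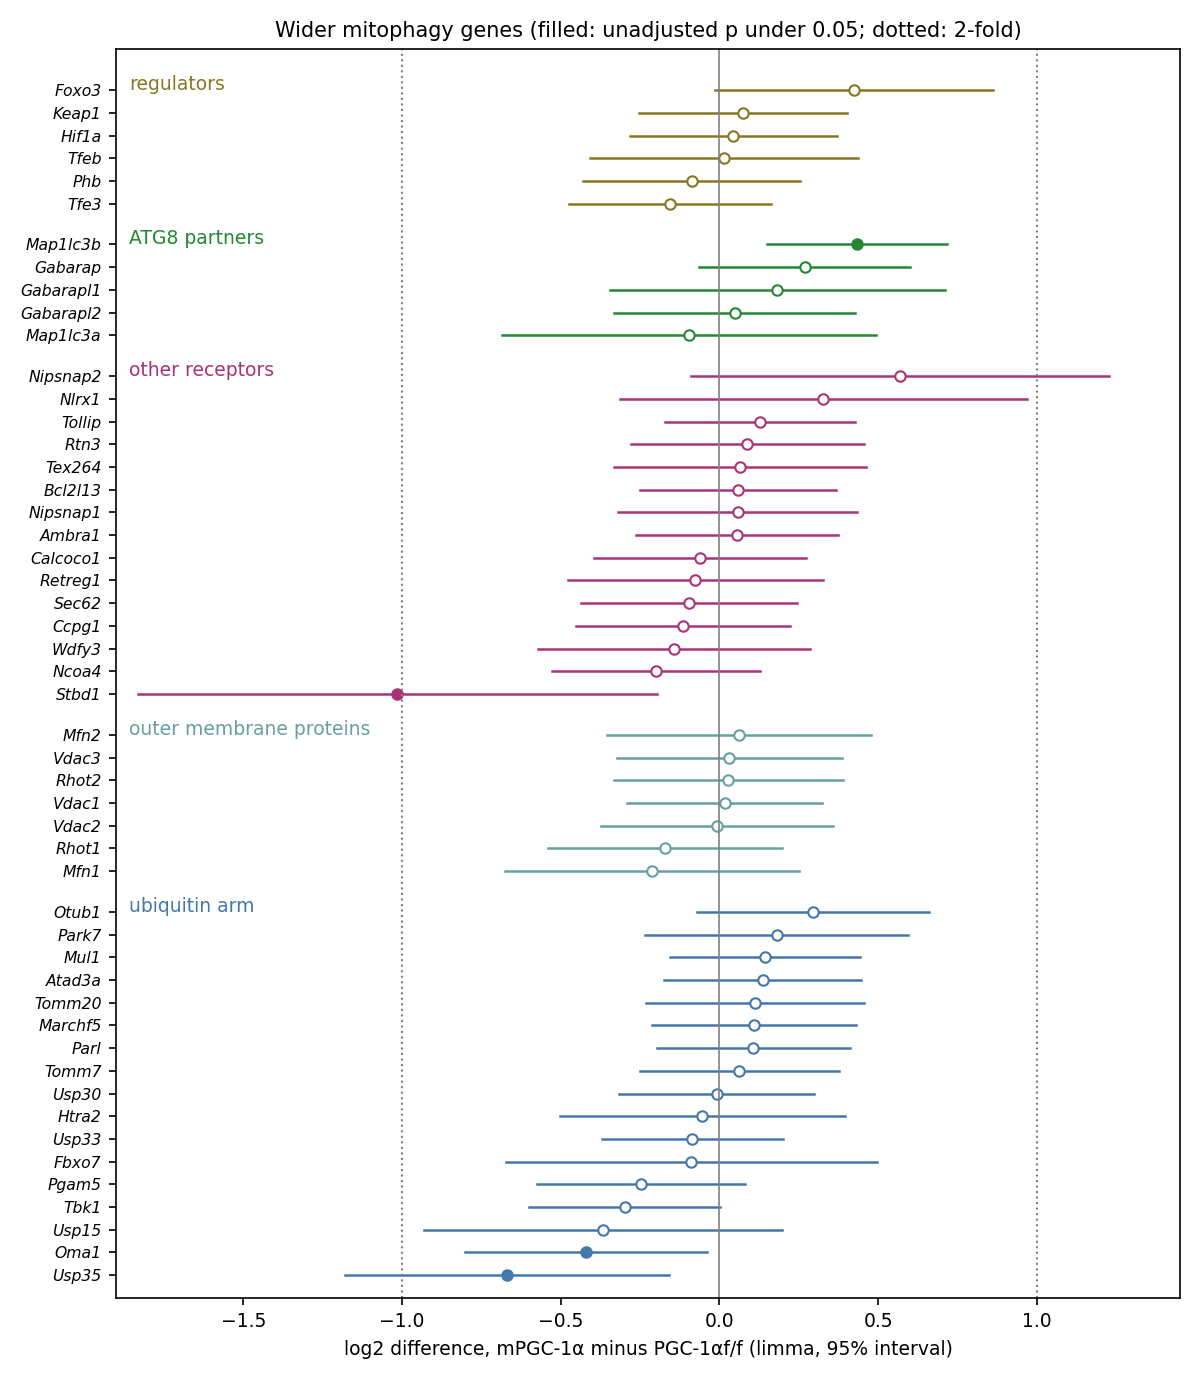
Log2 difference of mPGC-1α minus PGC-1αf/f microglia (x axis) with its 95% limma interval for the 50 tested genes of the wider list, grouped by role; filled points have an unadjusted p under 0.05 and dotted lines mark a 2-fold change. Map1lc3b is the only filled point above 0, and Stbd1, Usp35 and Oma1 are the filled points below 0.

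Finally, the genes whose profile over the 6 arrays was most like that of a receptor were listed among 11564 genes, as a description without a test. Hadhb, Osbpl9 and Add3 were closest to Pink1 (Pearson r 0.991, 0.989 and 0.986), and 42 genes had an r above 0.95. Nptn, Fmn2 and Decr1 were closest to Bnip3 (0.977, 0.970 and 0.969), with 23 above 0.95. Ntrk3, Eif5a2 and Ivd were closest to Sqstm1 (0.993, 0.991 and 0.985), with 31 above 0.95. The compared values share the array and its scaling.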

How the data were processed

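Amplified RNA of each sample, with Cy5 as the single dye, was measured by the authors on an Agilent mouse array. The deposited scanner files hold spot intensity from Feature Extraction 11.5.1.1, background-subtracted and detrended within each array, beside raw intensity and quality flags. The deposited series table held the same intensity values to within 0.00497 of their size. GeneSpring is the normalization software of the study's methods, which state no test per gene. Control and outlier spots were left out, the array's 75th percentile was subtracted from log2 intensity, and spots of a probe were averaged. Probes whose spots were well above background (share of at least 0.5) on all arrays of a group were fitted with limma 3.58.1 in R 4.3.3, two-sided, and p-values were adjusted over 25257 probes by the Benjamini-Hochberg method at 0.05. Gene symbols came from matching 33767 probe accessions to a RefSeq table (GRCm38.p6), and cross-hybridization was not analysed. The brightest probe with values on all 6 arrays stood for a gene. All members were named. Of the wider list, up to 5 genes in each direction at an unadjusted p under 0.05 were named, together with Usp30, Tbk1, Map1lc3b and Bcl2l13, and 1 gene of that list is not reported here. Foxo3, Usp8, Tomm70a, Rhot1, Rhot2 and the mitofusin and channel genes are named outside this rule, for a limit, a missing value, other probes or as examples of a set. The 3 most similar genes were listed for Pink1, Bnip3 and Sqstm1. Markers covered microglia and 7 other cell types. Members and lists were chosen with earlier results of these data known. The fit was tested on simulated data, and no outcome of that test is given here. Alternatives were other scalings, normexp with an offset of 50, the series table, other filters, the replicate number or slide column as a block, array weights, a trended robust fit, probe means, and leaving out arrays, of which leaving out both that stood apart was added after seeing the data. Figures were drawn in Python 3.11.15 with matplotlib 3.10.9.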

Additional observations from a re-analysis of the deposited data

Results flagged for a closer look

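A second Nbr1 probe (A_55_P2627357), for a different transcript accession than the main probe, entered no comparison because it was not well above background on any PGC-1αf/f array and on 1 of 3 mPGC-1α arrays. It was at -5.21, -4.96 and -5.36 in PGC-1αf/f microglia and at -4.71, -2.84 and -5.94 in mPGC-1α microglia, so the signal of -2.84 belongs to mPGC-1α replicate 2 and was noted as lying outside the main measurement. The main Nbr1 probe on that array, at -3.43, lay between the other mPGC-1α arrays.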

How the results depend on the processing

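Under each of the 18 alternatives that gave a value, 0 of the 10 receptor genes and 0 of the wider list passed the threshold by limma (0 to 3 and 1 to 6, respectively, had an unadjusted p under 0.05). Nbr1 could not be fitted under the filter requiring all 6 arrays. The number of probes past the threshold, 20 as reported, was 11 for each of quantile normalization, the median shift and normexp, 456 for the series table as deposited, 9 when dim probes were kept, 4 under the filter on all 6 arrays, 754 with array weights and 138 where the slide column was a random block. It ran from 0 to 25 when 1 array was left out: 0 lacking mPGC-1α replicate 3 (3335 with an unadjusted p under 0.05 by limma), 1 lacking mPGC-1α replicate 2, 2 lacking PGC-1αf/f replicate 2 and 11 lacking mPGC-1α replicate 1. It was 3 without both arrays that stood apart. The median shift moved the median of all probes to -0.14 and that of the receptor genes to -0.03, and the receptor median ran from -0.0013 to 0.14 when 1 array was left out. The following signs near 0 turned. Bnip3 was -0.033 by median shift and -0.040 without both arrays. Bnip3l was -0.080 by quantile normalization, -0.124 by median shift, -0.088 with normexp, -0.030 in the series table, -0.083 with array weights, -0.027 with the column block, -0.020 for probe means and -0.128 without both arrays. Sqstm1 was -0.092, -0.132, -0.054 and -0.035 in the first 4 of these. Fkbp8 was -0.0037 with array weights and -0.0025 without both arrays, and Phb2 was -0.031 by median shift. Of the other named genes, Bcl2l13 was -0.074 by median shift and -0.036 for probe means, and Usp30 was 0.021 with normexp, 0.015 with array weights, 0.0027 with the column block and 0.036 without both arrays. With 1 array left out, Bnip3 ran from -0.0011 to 0.25, Bnip3l from -0.087 to 0.076, Pink1 from -0.078 to 0.345, Sqstm1 from -0.089 to 0.083 and Usp30 from -0.064 to 0.056. The cause of these changes was not tested, except that filters change the number of probes tested.

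With the replicate number as a block, limma gave 0 probes past the threshold (4681 with an unadjusted p under 0.05), 0 receptor genes and a receptor median of 0.10. Deviations of same-numbered arrays correlated at 0.139, 0.127 and 0.0187, which was too low for the third pair to treat the numbers as pairs, although each array correlated best with its own number. The replicate 1 arrays shared slide column 1 and the replicate 2 arrays column 2. The replicate 3 arrays lay in columns 4 and 3, so replicate number and slide column cannot be told apart here. Signal over background limits Nbr1, the second probes of Optn and Stbd1, and Foxo3, named after its values were seen, which is among the 5 higher genes of the wider list whose groups did not overlap.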
